A study of Mus musculus with 12 samples.

Results

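The messenger RNAs of 10 cytokine and chemokine genes of fibroblasts were followed in NIH-3T3, a continuous fibroblast line derived from mouse embryos: Ccl2, Ccl7, Cxcl1, Cxcl5, Cxcl12, Cx3cl1, Csf1, Il6, Lif and Il33. The members were taken by gene symbol from a list, and all 10 had a row among the 54392 gene rows of the deposited table. Of these, 8 passed the filter on low values (10 or more normalized counts in 3 or more libraries of the 12), as did 15073 genes in all, whereas Cxcl12 and Il33 did not and were not tested. The study compared total RNA of cells with the genotypes Crls1WT, Crls1KO1, Crls1KO2 and Crls1KO3 (WT, KO1, KO2 and KO3 below), with 3 libraries per genotype. Crls1 encodes cardiolipin synthase, which makes a phospholipid of the inner mitochondrial membrane, and the title of the series concerns mitochondrial ribosomes and protein synthesis. Per the labels, the knockout lines were made by transfecting NIH-3T3 cells with a vector that encodes Cas9 and a guide RNA against Crls1, after which single GFP-positive cells were sorted and grown, so that each line descends from 1 cell. All genotypes were grown in the same serum-containing medium with glucose, pyruvate and uridine, and the labels name no added cytokine or microbial stimulus. Whether WT cells were also transfected or sorted, and whether the libraries of a genotype are separate cultures, is not stated in the labels. Every p-value here covers only the spread between these libraries, and that spread may be technical.

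Chemokines are small secreted proteins that guide leukocytes along concentration gradients through G protein-coupled receptors, and they are grouped by the spacing of their first cysteines. CCL2 and CCL7 draw monocytes through CCR2, CXCL1 and CXCL5 draw neutrophils through CXCR2, CXCL12 acts on CXCR4 and ACKR3, and CX3CL1 is made as a membrane-anchored protein that can be shed. CSF1 keeps macrophages alive, IL-6 and LIF signal through receptors that contain gp130 (Il6st), and IL-33 is stored in the nucleus and read by ST2 (Il1rl1). Fibroblasts are a known source of these signals in connective tissue, and many of the genes are transcribed on stimulation by NF-kB, AP-1 and C/EBP factors.

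The cysteine spacing that defines each chemokine class is shown here because it tells the chemokine members apart. The lines below are stretches of the coding sequence around the first cysteine pair, 5′ to 3′, from GENCODE release M21 transcripts, with the cysteine codons in capitals.
Ccl2: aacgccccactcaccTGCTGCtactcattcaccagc
Ccl7: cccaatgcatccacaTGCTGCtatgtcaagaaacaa
Cxcl1: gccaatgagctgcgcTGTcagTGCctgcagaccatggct
Cxcl5: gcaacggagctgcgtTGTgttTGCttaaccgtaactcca
Cxcl12: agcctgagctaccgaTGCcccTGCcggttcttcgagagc
Cx3cl1: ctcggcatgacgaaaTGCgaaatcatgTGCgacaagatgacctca
Ccl2 and Ccl7 have 0 codons between the cysteines, Cxcl1, Cxcl5 and Cxcl12 have 1, and Cx3cl1 has 3. The coding sequences of Ccl2 and Ccl7 were identical at 49.9% of the 459 columns of their alignment. Ccl2 had 47.9% with Cxcl1, 52.1% with Cxcl5, 50.0% with Cxcl12 and 31.7% with Cx3cl1, all of other classes. Gaps count as columns, and the coding sequences of Ccl2 (447 bases) and Ccl7 (294 bases) differ in length, so these values cannot show whether the pair is set apart. Ccl8 and Ccl11 also have 0 codons between the cysteines. Ccl7 had 66.9% with Ccl8 and 67.9% with Ccl11, against 53.7% with Cxcl1, 51.0% with Cxcl5 and 50.8% with Cxcl12. Ccl2 had 49.6% with Ccl8 and 50.2% with Ccl11. The transcripts of Ccl2 and Ccl7 shared 0 stretches of 31 bases with any other gene, so no such stretch was ambiguous between genes. The same held for Cxcl1, Cx3cl1, Csf1, Il6 and Il33, while 0.871% of the stretches of Cxcl5, 0.441% of those of Lif and 0.110% of those of Cxcl12 also occurred in another gene.

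The sequences just upstream of 3 members are shown because Csf1 and Il6 fell and Cxcl1 rose, while each window holds the NF-kB consensus. They are the 250 bases before the transcription start in RefSeq (GRCm38.p6), written in the direction of the gene, with matches to the searched motifs in capitals.
Csf1, chr3:107760470-107760719, minus strand: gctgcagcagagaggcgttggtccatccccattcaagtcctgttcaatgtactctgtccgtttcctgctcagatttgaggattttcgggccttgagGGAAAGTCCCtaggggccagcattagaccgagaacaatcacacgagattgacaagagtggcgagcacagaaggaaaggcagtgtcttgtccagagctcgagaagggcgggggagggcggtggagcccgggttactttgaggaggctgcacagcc
Il6, chr5:30012864-30013113, plus strand: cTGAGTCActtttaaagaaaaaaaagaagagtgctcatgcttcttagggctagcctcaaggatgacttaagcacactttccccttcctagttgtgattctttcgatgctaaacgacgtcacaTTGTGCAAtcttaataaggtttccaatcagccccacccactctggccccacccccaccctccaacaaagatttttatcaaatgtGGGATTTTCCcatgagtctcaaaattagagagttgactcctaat
Cxcl1, chr5:90890995-90891244, plus strand: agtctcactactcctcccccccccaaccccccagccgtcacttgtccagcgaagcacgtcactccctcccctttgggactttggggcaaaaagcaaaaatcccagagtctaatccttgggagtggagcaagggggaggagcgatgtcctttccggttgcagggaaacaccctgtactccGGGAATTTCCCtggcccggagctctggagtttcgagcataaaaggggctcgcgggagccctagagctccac
The motifs were searched on both strands, and 7 of the 10 members had a promoter entry. The NF-kB consensus matched at position -154 of Csf1 on the opposite strand, at -44 of Il6, and at -71 and -70 of Cxcl1, where the matches on both strands overlap. It occurs in 4.51% of the 32851 mouse promoter windows of 300 bases. In Il6 the AP-1 motif TGANTCA matched at -249 and the C/EBP motif TTGCNNAA at -128, and in Lif the AP-1 motif matched at -228. The AP-1 motif occurs in 7.81% of all windows and the C/EBP motif in 10.8%. Il33 had separate promoter entries, with windows that start at chr19:29924863 and at chr19:29945540. In the latter the C/EBP motif matched at -85. TATAAA, present in 13.6% of windows, matched at -6 of Cx3cl1. It also matched at -203 in the Il33 window from chr19:29924863 and at -29 in the Il33 window from chr19:29945540. TGATGNAA, present in 3.97%, matched in none of the 7. A match only says that these letters are in the window.

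Depth was 32929242 to 42211807 reads per library. Crls1, the targeted gene, was lower in each knockout line, with mean normalized counts (± SD, n = 3 here and below) of 815 ± 68.4 for WT, 210 ± 2.67 for KO1, 349 ± 21.1 for KO2 and 381 ± 23.9 for KO3, and its RNA was thus reduced but present. Of 10 fibroblast markers, 8 reached a normalized count of 10 in every genotype, with a summed level of 776470 to 902540 per library, while Lum had 0 reads and Dcn 4 reads in all 12 libraries. Of 10 macrophage and leukocyte markers, 5 to 8 reached a count of 10, among them Csf1r and Lyz2. Their sum per library ran from 1949 to 2226 (WT), 2134 to 2288 (KO1), 1610 to 1709 (KO2) and 1214 to 1439 (KO3), and Tyrobp, a defining marker, had 1 read in all libraries. T and B lymphocyte markers summed to at most 4.52 in any library. The 5 endothelial markers summed to 21.2 to 35.2 (WT), 187 to 239 (KO1, mostly Cdh5), 26.1 to 87.9 (KO2) and 27.2 to 74.6 (KO3). The 6 epithelial markers summed to 97.6 to 111, 362 to 383, 212 to 236 and 326 to 341, mostly Krt8 in WT and Cdh1 in the knockout lines, with Epcam at 2 reads in all. Cdh1 had means of 17.8 (WT), 350 (KO1), 185 (KO2) and 307 (KO3). Krt8 went the other way, with means of 84.8, 5.26, 9.59 and 4.41.

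Against WT, the growth factor Csf1, the cytokines Il6 and Lif and the chemokine Cx3cl1 fell in all 3 knockout lines, and the chemokine Cxcl5 rose in all 3. Ccl2 and Ccl7 rose in KO1 and KO3 and stayed near 0 in KO2. The tests are those of limma on log2(normalized count + 1), fitted to all 4 groups, two-sided, at a threshold of 0.05 on p-values adjusted over the 15073 genes by the Benjamini-Hochberg method. Differences on this scale understate the change of weakly expressed genes. In KO1, 4 members were higher and 4 lower, where 52.3% of all tested genes were called (26.9% higher and 25.4% lower). In KO2, 2 were higher and 4 lower, where 60.4% of genes were called (29.9% and 30.5%). In KO3, 4 were higher and 4 lower, where 54.1% were called (26.8% and 27.3%). Of all tested genes, 12.9% were higher and 13.3% lower in all 3 lines. Ccl2 and Ccl7 passed the filter only through KO1 and KO3, and Lif only through WT, so these 3 genes had to differ between groups and the counts support nothing by themselves. The KO1 count of 8 became 5 without WT replicate 1, without KO1 replicate 1 and without KO1 replicate 3. Groups without overlap were common as well, at 59.5%, 62.4% and 58.0% of tested genes for KO1, KO2 and KO3. The 3 comparisons share the WT libraries. The median difference of all tested genes was between 0.003 and 0.018.

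**Figure D1:**
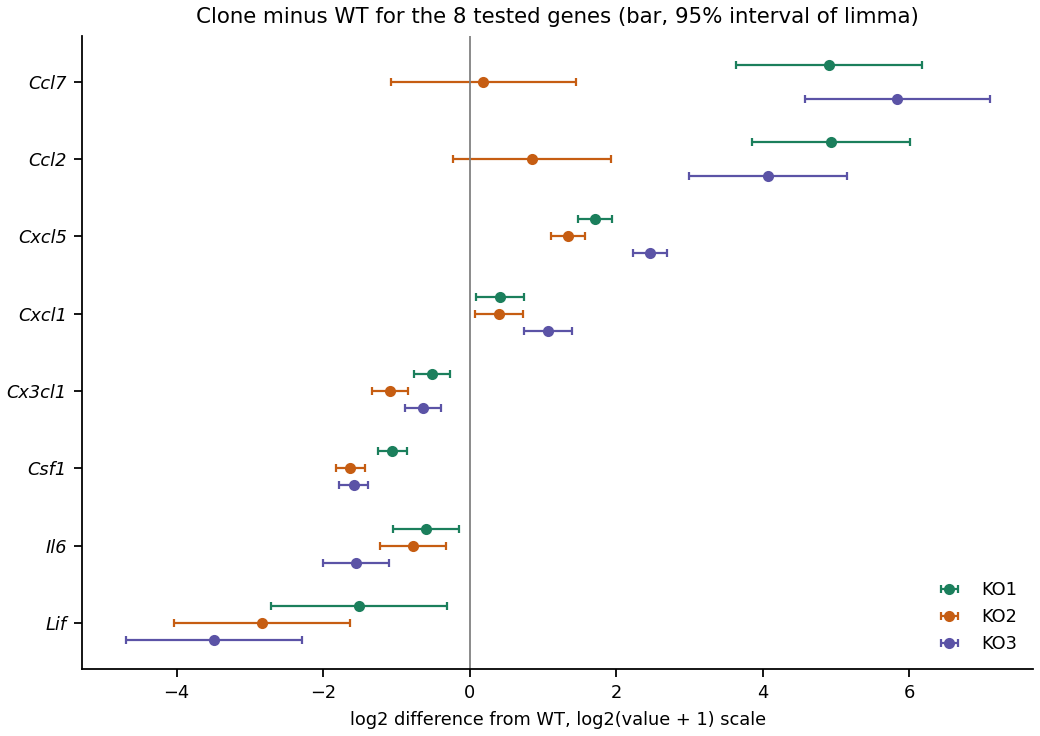
Differences from WT in log2(normalized count + 1) for the 8 tested genes (points, limma estimate; bars, 95% interval), with 1 colour per knockout line. Cxcl5 lies above 0 and Csf1, Cx3cl1, Il6 and Lif lie below 0 in KO1, KO2 and KO3, while Ccl2 and Ccl7 are far above 0 in KO1 and KO3 and their KO2 intervals include 0.

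Csf1 (chromosome 3, 107741048 to 107760469, GRCm38, minus strand), which encodes macrophage colony-stimulating factor, was by far the most abundant of the 10 RNAs and fell in all 3 lines. The WT libraries had normalized counts of 32299, 26951 and 27402. KO1 had 14185, 13672 and 13564, KO2 had 8058, 9663 and 10334, and KO3 had 9150, 10145 and 9612. Every knockout library was below every WT library, and every KO2 and KO3 library was below every KO1 library. The log2 difference of Csf1 from WT was -1.06 for KO1 (SE 0.09, limma adjusted p = 1.06e-06), -1.63 for KO2 (adjusted p = 1.71e-08) and -1.58 for KO3 (adjusted p = 2.12e-08). It was lower in KO2 than in KO1 by a log2 difference of -0.57 (adjusted p = 0.000289) and lower in KO3 than in KO1 by -0.52 (adjusted p = 0.000573). KO3 and KO2 overlapped, with a difference of 0.05 (95% interval -0.15 to 0.25, adjusted p = 0.672). In such bulk RNA, fewer cells that express a gene and less RNA per cell cannot be told apart.

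Il6 (chromosome 5, 30013114 to 30019981, plus strand), the gene of the inflammatory cytokine IL-6, was expressed at a low level and fell most in KO3. The WT libraries had 103, 84.9 and 84.9 normalized counts, KO1 had 53.5, 78.1 and 51.1, KO2 had 56.9, 51.7 and 49.2, and KO3 had 38.4, 26.3 and 27.7. No knockout library reached the lowest WT library, and KO3 also lay below both other lines. The log2 difference from WT was -0.59 in KO1 (SE 0.21, limma adjusted p = 0.0304), -0.78 in KO2 (adjusted p = 0.00621) and -1.55 in KO3 (adjusted p = 4.58e-05). KO3 was below KO1 by -0.96 (adjusted p = 0.00256, or -0.62 and 0.0306 under quantile normalization) and below KO2 by -0.77 (adjusted p = 0.00752), while KO2 against KO1 gave -0.18 (95% interval -0.64 to 0.27, adjusted p = 0.508). The KO1 call was lost without WT replicate 1 (-0.50, adjusted p = 0.0932), without KO1 replicate 1 (adjusted p = 0.0998), without KO1 replicate 3 (adjusted p = 0.113) and with no filter on low values (adjusted p = 0.0695), whereas quantile normalization gave -0.95 (adjusted p = 0.00232).

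Lif (chromosome 11, 4257557 to 4272514, plus strand) encodes leukaemia inhibitory factor, an IL-6 family cytokine known for keeping mouse embryonic stem cells undifferentiated. Its normalized counts were 50.6, 20.7 and 15.4 in WT, 8.56, 7.39 and 8.85 in KO1, 3.73, 1.92 and 2.64 in KO2, and 3.11, 0 and 2.13 in KO3. All knockout libraries were below all WT libraries, and WT replicate 1 was far above the other WT libraries. These values rest on 80, 24, 9 and 5 reads per group. The log2 differences from WT were -1.51 in KO1 (SE 0.55, limma adjusted p = 0.0367), -2.84 in KO2 (adjusted p = 0.000733) and -3.49 in KO3 (adjusted p = 0.000178). Lif passed the filter only through WT, so its calls against WT are no support for a difference. The KO1 call was lost without WT replicate 1 (-1.03, adjusted p = 0.151), without WT replicate 2 (adjusted p = 0.0527), without each KO1 library in turn (adjusted p = 0.0709 to 0.0902), with a pseudocount of 0.5 (adjusted p = 0.0751) and with no filter (adjusted p = 0.0633), whereas quantile normalization gave -2.28 (adjusted p = 0.00557). Lif was lower in KO3 than in KO1 (-1.98, adjusted p = 0.0116), a call lost under quantile normalization (-0.99, adjusted p = 0.185). KO2 against KO1 gave -1.33 (95% interval -2.53 to -0.12, adjusted p = 0.0706), and KO3 against KO2 gave -0.65 (interval -1.86 to 0.55, adjusted p = 0.343).

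Cx3cl1 (chromosome 8, 94772009 to 94782427, plus strand), the gene of fractalkine, fell in each line and was lowest in KO2. The normalized counts were 637, 672 and 751 in WT, 450, 477 and 511 in KO1, 271, 345 and 353 in KO2, and 451, 401 and 473 in KO3. Each knockout library was below each WT library, and KO2 was below the other 2 lines without overlap. Relative to WT, Cx3cl1 stood at -0.52 in KO1 (log2, SE 0.11, limma adjusted p = 0.00211), -1.09 in KO2 (adjusted p = 4.04e-06) and -0.64 in KO3 (adjusted p = 0.000438). KO2 differed from KO1 by -0.57 (adjusted p = 0.00132) and KO3 from KO2 by 0.46 (adjusted p = 0.00456), while KO3 and KO1 overlapped (-0.12, 95% interval -0.36 to 0.13, adjusted p = 0.430).

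**Figure D2:**
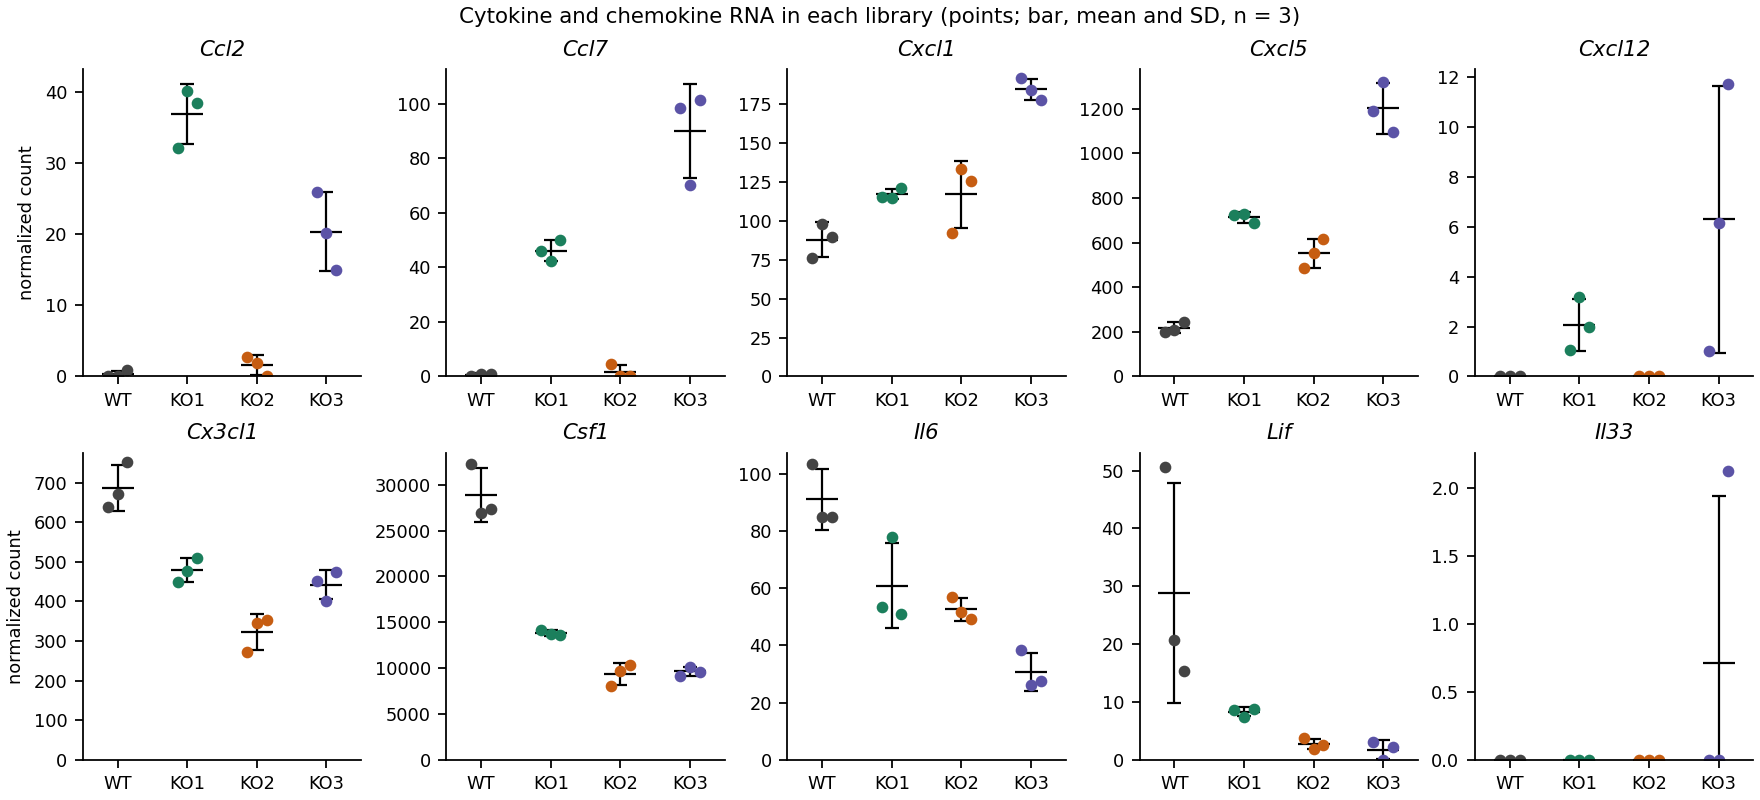
Normalized count of each of the 10 genes (linear axis from 0, own scale per gene) in the 3 libraries of WT, KO1, KO2 and KO3 (points), with mean and SD as bars. Csf1 runs from 26951 to 32299 in WT and from 8058 to 14185 in the knockout lines, and Cxcl5 from 201 to 246 in WT and from 487 to 1321 in the knockout lines.

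The neutrophil-attracting chemokine gene Cxcl5 (chromosome 5, 90759360 to 90761624, plus strand) rose in all 3 lines, most in KO3. The WT libraries had normalized counts of 201, 206 and 246. KO1 had 726, 727 and 687, KO2 had 487, 555 and 615, and KO3 had 1190, 1321 and 1095. No groups overlapped, and the order was KO3, KO1, KO2 and WT. The log2 differences from WT were 1.71 in KO1 (SE 0.11, limma adjusted p = 5.77e-08), 1.34 in KO2 (adjusted p = 4.17e-07) and 2.46 in KO3 (adjusted p = 1.62e-09). All 3 pairs of lines differed: KO3 from KO2 by 1.12 (adjusted p = 2.67e-06), KO3 from KO1 by 0.75 (adjusted p = 0.000126) and KO2 from KO1 by -0.37 (adjusted p = 0.0132). The last call was lost without KO2 replicate 1 (-0.29, adjusted p = 0.0605).

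Cxcl1 (chromosome 5, 90891241 to 90893115, plus strand), a chemokine gene of the same cluster that also acts on CXCR2, rose in KO3, with smaller and less stable rises in KO1 and KO2. Its normalized counts were 76.4, 98.4 and 89.4 in WT, 116, 115 and 121 in KO1, 92.4, 133 and 126 in KO2, and 192, 184 and 178 in KO3. KO3 was above all other libraries, KO1 was above WT without overlap, and KO2 overlapped WT. The difference from WT was 1.07 in KO3 (SE 0.15, limma adjusted p = 7.34e-05), 0.42 in KO1 (adjusted p = 0.0362) and 0.40 in KO2 (adjusted p = 0.0384). KO3 also exceeded KO1 by 0.65 (adjusted p = 0.00398) and KO2 by 0.67 (adjusted p = 0.00254). The KO1 and KO2 calls were not stable: under quantile normalization they became 0.11 (adjusted p = 0.581) and 0.22 (adjusted p = 0.235), without WT replicate 1 they became 0.32 (adjusted p = 0.115) and 0.30 (adjusted p = 0.124), and in the authors' deposited table the adjusted p-values were 0.0622 and 0.0538. Both were also lost with no filter and without several other single libraries. Per library, the ratio of Cxcl5 to Cxcl1 normalized counts was 2.09 to 2.75 (WT), 5.67 to 6.32 (KO1), 4.17 to 5.27 (KO2) and 6.16 to 7.17 (KO3).

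Between Cxcl5 and Cxcl1 on chromosome 5 lie Ppbp, Pf4, Cxcl3 and Cxcl15, and Cxcl2 follows Cxcl1. Cxcl2, Cxcl3 and Cxcl15 had 0 reads in every library, and Pf4 had 2 reads at most over a group. Ppbp, the gene of another CXCR2 ligand precursor, had a mean of 5.88 ± 1.37 for WT, against 13.6 ± 4.55, 10.9 ± 3.32 and 19.3 ± 3.03 for KO1, KO2 and KO3. It rose in KO3 (1.57, limma adjusted p = 0.00178) and in KO1 (1.05, adjusted p = 0.0203), and its KO2 difference was 0.76 (adjusted p = 0.0699). Ppbp was under a count of 10 in WT and passed the filter through the knockout lines. Its KO1 call was lost under quantile normalization (0.39, adjusted p = 0.390), without the filter (adjusted p = 0.0602), with DESeq2 (0.0581), in the authors' deposited table (0.0750), and without WT replicate 3 (0.0670), KO1 replicate 1 (0.0551) or KO1 replicate 2 (0.0850), and its KO2 difference was called without KO2 replicate 3 (1.02, adjusted p = 0.0277).

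The monocyte-attracting chemokine genes Ccl2 (chromosome 11, 82035571 to 82037453, plus strand) and Ccl7 (82045712 to 82047525, plus strand) are neighbours. The RNA of both was nearly absent in WT and KO2 and present at a low level in KO1 and KO3. The normalized counts of Ccl2 were 0, 0 and 0.903 in WT, 32.1, 40.1 and 38.4 in KO1, 2.8, 1.92 and 0 in KO2, and 25.9, 20.2 and 14.9 in KO3. These are 1, 107, 5 and 62 reads per group. KO1 and KO3 lay above WT and KO2 without overlap, and KO2 overlapped WT. The log2 difference from WT was 4.93 in KO1 (SE 0.49, limma adjusted p = 4.27e-06), 4.07 in KO3 (adjusted p = 1.89e-05) and 0.85 in KO2 (95% interval -0.23 to 1.92, adjusted p = 0.158). The KO2 difference passed the threshold without KO2 replicate 3 (1.43, adjusted p = 0.0113). As ratios of reads scaled for depth, KO1 was 108 times WT (exact 95% counting interval 19.0 to 4302), KO3 59.6 times WT (10.3 to 2390) and KO2 4.49 times WT (0.503 to 213), and these intervals cover counting error only.

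Ccl7 had normalized counts of 0, 1.04 and 0.903 in WT, 46.0, 42.2 and 50.2 in KO1, 4.66, 0 and 0 in KO2, and 98.5, 70.2 and 101 in KO3, from 2, 134, 5 and 270 reads. KO3 was highest in all 3 libraries, KO1 followed without overlap, and KO2 and WT overlapped. The log2 difference from WT was 4.90 in KO1 (SE 0.58, limma adjusted p = 1.80e-05), 5.84 in KO3 (adjusted p = 3.29e-06) and 0.18 in KO2 (95% interval -1.08 to 1.45, adjusted p = 0.807). The corresponding read ratios were 67.6 (18.3 to 564), 130 (35.6 to 1076) and 2.25 (0.368 to 23.6). KO2 was below KO1 by -4.08 for Ccl2 (adjusted p = 3.28e-05) and by -4.72 for Ccl7 (adjusted p = 3.72e-05), and KO3 was above KO2 by 3.23 (adjusted p = 0.000140) and 5.65 (adjusted p = 5.04e-06). Both genes passed the filter only through KO1 and KO3, so their calls against WT or KO2 are no support for a difference. Between KO3 and KO1 neither gene was called: Ccl2 differed by -0.85 (interval -1.93 to 0.22, adjusted p = 0.187) and Ccl7 by 0.93 (interval -0.33 to 2.20, adjusted p = 0.220). With a pseudocount of 5 both passed the threshold (-0.74, adjusted p = 0.0222, and 0.88, adjusted p = 0.0162). Both also passed when limma was fitted to only the 2 groups compared (adjusted p = 0.0240 and 0.00475). Ccl7 passed with DESeq2 on recovered reads as well (0.96, adjusted p = 0.00804). Every KO3 library was below every KO1 library for Ccl2 and above every KO1 library for Ccl7. The ratio of Ccl7 to Ccl2 normalized counts was 1.05 to 1.43 in the KO1 libraries and 3.48 to 6.79 in the KO3 libraries.

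The other CC chemokine genes beside Ccl2 and Ccl7 on chromosome 11 are Ccl11, Ccl12, Ccl8 and Ccl1. Ccl8 (82115185 to 82116799), a further chemokine gene with adjacent cysteines, had 0 reads in WT, 56.7, 30.6 and 54.1 normalized counts in KO1, 0, 0 and 0.879 in KO2, and 33.2, 14 and 23.4 in KO3. Against a floor of 3 reads set for the WT group, its depth-scaled ratio was 46.1 in KO1 and 22.4 in KO3. Such ratios leave out counting error in the lines. Ccl8 passed the filter only through KO1 and KO3, so its calls there are no support for a difference. Ccl11, which encodes eotaxin and was named after its values were seen, was below the filter. It had 0 reads in WT and KO2, 18 in KO1 and 16 in KO3, with ratios of 6.05 and 5.12 against the same floor. Its normalized counts were 7.49, 6.33 and 4.92 in KO1 and 2.07, 1.75 and 12.8 in KO3, so the KO3 value comes mostly from replicate 3. Ccl12 had 1 read in all 12 libraries and Ccl1 none. Gm17268, a gene model on the opposite strand that overlaps Ccl2, had 0 reads in each group. The sum of the macrophage and leukocyte markers given above overlapped between WT and KO1 and was lowest in KO3. Of these markers, Ptprc had means of 0.345 (WT), 32.3 (KO1), 0.311 (KO2) and 1.29 (KO3). Also highest in KO1 were Lyz2 (1280, 1822, 1280 and 1033), Adgre1 (5.51, 12.5, 6.39 and 0.292) and Fcgr1 (0, 3.40, 0.622 and 0). Csf1r was at 531, 102, 141 and 62.3 and Itgam at 40.8, 22.9, 8.67 and 5.49. Cd68 was at 58.1, 61.4, 53.6 and 53.7 and Aif1 at 13.7, 15.5, 16.4 and 10.8. Cd14 was at 154 to 174 in each genotype and Tyrobp at 0 in the 3 lines. The part of these markers in the results was not tested.

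**Figure D3:**
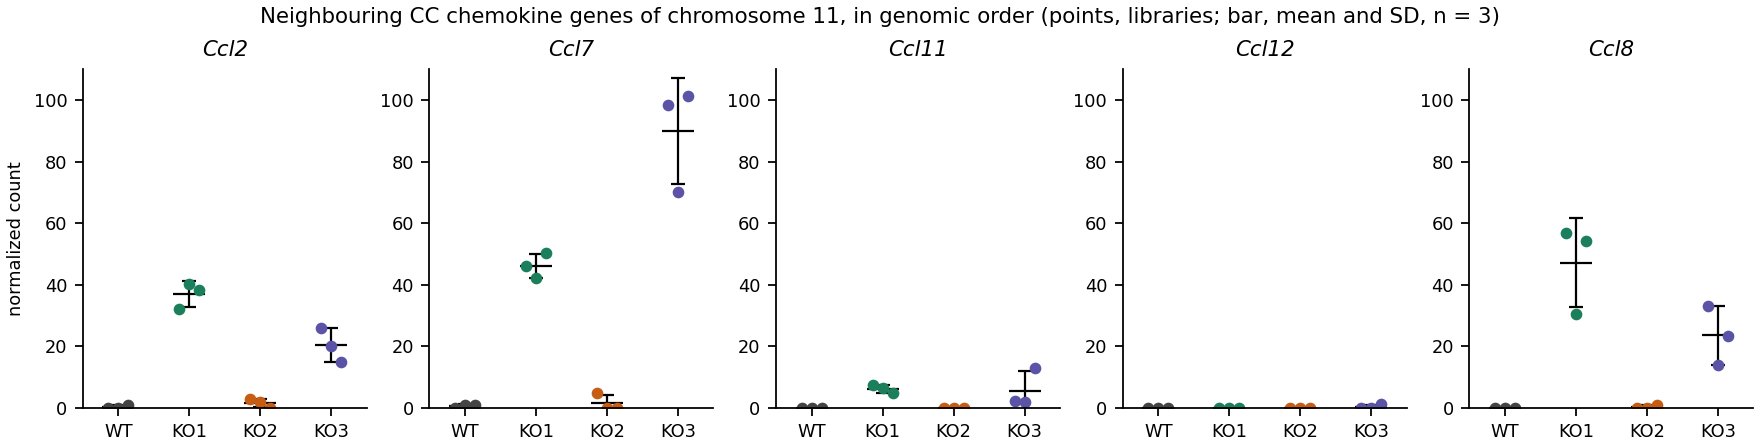
Normalized count (linear axis from 0, the same scale in each panel) of 5 neighbouring CC chemokine genes of chromosome 11, from left to right in genomic order, in the 3 libraries of each group (points), with mean and SD as bars. Ccl2, Ccl7 and Ccl8 reach 14 or more in every KO1 and KO3 library and stay at 4.66 or less in every WT and KO2 library.

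Cxcl12 (chromosome 6, 117168535 to 117181367, plus strand), a chemokine gene that many stromal cells express, was close to undetected here. It had 0 reads in WT and KO2, 6 reads in KO1 (normalized counts of 1.07, 3.17 and 1.97) and 19 reads in KO3 (1.04, 6.14 and 11.7). Against a floor of 3 reads set for the WT group, the depth-scaled ratio of Cxcl12 was 2.02 in KO1 and 6.08 in KO3. These ratios leave out counting error in the lines. In the authors' deposited table it was called in KO3, with a log2 fold change of 3.55, a standard error of 3.6 and an adjusted p of 0.0152. Il33 (chromosome 19, 29925114 to 29960718, plus strand) had 0 reads in every library but KO3 replicate 3, which had 2.

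Levels of different genes were compared as normalized counts per kilobase of merged exon length. In WT the order was Csf1 at 5469, Cx3cl1 at 175, Cxcl5 at 117, Cxcl1 at 47.0, Il6 at 37.5, Lif at 6.64, Ccl7 at 0.807 and Ccl2 at 0.265, of which Cxcl1 overlapped Il6 and Ccl7 overlapped Ccl2. Csf1 stayed first in the 3 lines, at 2614 in KO1, 1771 in KO2 and 1825 in KO3. Cxcl5 stood second in each line, at 383, 297 and 645, ahead of Cx3cl1 at 122, 82.2 and 112. Ccl7 reached 57.6 in KO1, where it overlapped Cxcl1 at 62.5, and 112 in KO3, where it overlapped both Cx3cl1 and Cxcl1 (98.5). Summed over the 10 genes, normalized counts were 29997 ± 2933 for WT and 15271 ± 307, 10403 ± 1287 and 11614 ± 519 for KO1, KO2 and KO3, and Csf1 made up a mean of 83.0% (KO3) to 96.3% (WT) of them. Without Csf1 the sums were 1114 ± 65.3, 1464 ± 29.4, 1051 ± 118 and 1978 ± 64.1.

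Between the lines themselves, KO2 against KO1 called 0 members higher and 5 lower, where 44.4% of all tested genes were called (20.5% higher and 23.9% lower). KO3 against KO1 called 2 higher and 3 lower, where 43.6% of genes were called (20.3% and 23.4%). KO3 against KO2 called 5 higher and 1 lower, where 53.1% were called (26.1% and 27.0%). At least 1 pair of lines differed for each of the 8 tested members, as it did for 69.6% of all tested genes. Ccl2 and Ccl7, which passed the filter only through KO1 and KO3, had to differ from KO2. Cxcl5 was called in each of the 3 pairs.

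The receptor genes of these ligands were read from a list of 17, of which 7 passed the filter. In KO1, 4 rose and 3 fell, in KO2, 3 rose and 3 fell, and in KO3, 2 rose and 5 fell, beside 52.3%, 60.4% and 54.1% of all tested genes called in the 3 comparisons. The median difference of the 7 was 0.36, 0.00 and -0.90. Lifr, which encodes the LIF receptor, fell most: its normalized counts were 5151, 4702 and 5235 in WT, 779, 843 and 885 in KO1, 630, 572 and 724 in KO2, and 368, 381 and 346 in KO3. The groups did not overlap, and the log2 differences were -2.59, -2.97 and -3.78 (SE 0.09, limma adjusted p = 2.27e-10, 8.28e-11 and 9.62e-12). The counts of Lif were also lower in each line, but they rest on 80, 24, 9 and 5 reads per group. Lif passed the filter only through WT, so its calls are no support for a difference. Il6st, which encodes the gp130 chain that LIF and IL-6 share, rose from 7630 ± 972 to 16559 ± 570 (KO1), 18069 ± 1034 (KO2) and 13617 ± 1105 (KO3) (1.12, 1.25 and 0.84, adjusted p at most 4.66e-06). Il6ra, the gene of the IL-6 binding chain, rose from 561 ± 50.5 to 1268 ± 40.5, 789 ± 44.4 and 1282 ± 46.5 (1.18, 0.49 and 1.19, adjusted p at most 9.12e-05).

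Csf1r, which encodes the CSF1 receptor, fell from 531 ± 86.6 to 102 ± 38.3, 141 ± 24.0 and 62.3 ± 11.4 in the 3 lines (-2.42, -1.91 and -3.07, limma adjusted p at most 3.15e-05). Csf1r, Il1rl1 and Il1rap are named because a small count includes them, after their values were seen. Ackr3, a scavenging receptor for CXCL12, fell from 3012 ± 110 to 2241 ± 78.2, 1224 ± 113 and 943 ± 39.8 (-0.43, -1.30 and -1.67, adjusted p at most 0.000249). Il1rl1, which encodes the IL-33 receptor ST2, was lower in KO3 (-0.90, adjusted p = 8.64e-05), at 3070 ± 262 against 5793 ± 1081 in WT. Its KO1 difference of 0.36 (adjusted p = 0.0379) was lost without each of 5 single libraries, for example at an adjusted p of 0.136 without WT replicate 3. Il1rap, the gene of its co-receptor, rose in KO1 and KO2 (0.37 and 0.51, adjusted p = 0.00241 and 0.000167) and fell in KO3 (-0.50, adjusted p = 0.000257). Of the untested chemokine receptor genes, Cxcr4, Ccr3 and Ackr1 had 0 reads in all libraries. Ccr2 had 3 reads in all, Cx3cr1 had 1, 12, 2 and 7 reads per group, and Cxcr2 had 18, 15, 24 and 27.

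**Figure D4:**
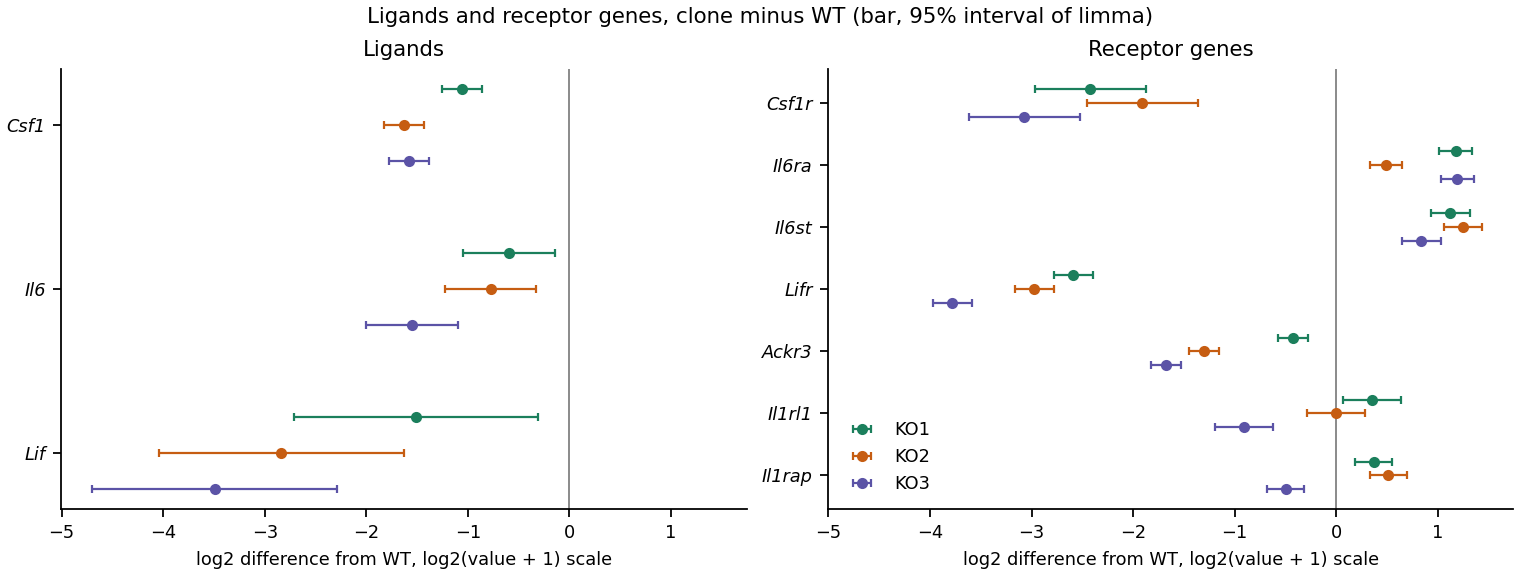
Differences from WT in log2(normalized count + 1) of 3 ligand genes (left) and the 7 tested receptor genes (right), with the limma estimate as points and its 95% interval as bars for KO1, KO2 and KO3. Lifr is at -2.59, -2.97 and -3.78 and Csf1r at -2.42, -1.91 and -3.07, on the same side as Lif and Csf1, while Il6ra and Il6st are above 0 in all 3 lines and Il6 is below 0.

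Among 29 other chemokine genes, 12 had 0 reads in every library and 6 were tested. KO1 called Ccl8, Cxcl10 and Ppbp higher, KO2 called Ccl28 higher, and KO3 called Ccl8, Ccl28 and Ppbp higher and Ccl25 lower, the last named after its value was seen, against the shares of 52.3%, 60.4% and 54.1% over all genes. Ccl28, an epithelial chemokine gene, had 44.0 ± 11.8 normalized counts in WT, 67.3 ± 10.2 in KO2 and 81.7 ± 8.22 in KO3 (0.62 and 0.90, limma adjusted p = 0.0279 and 0.00404). The KO2 call of Ccl28 was lost in 7 of the other settings, for example at an adjusted p of 0.114 under quantile normalization, and the KO2 count of 1 ran from 0 to 2 when single libraries were left out, with 2 without WT replicate 1 and without KO2 replicate 3. Cxcl10, an interferon-induced chemokine gene, had 3.58 ± 2.18 in WT and 13.2 ± 3.43 in KO1 (1.74, adjusted p = 0.00970, or 0.0582 under quantile normalization). It reached a count of 10 only in the 3 KO1 libraries and 1 KO3 library, so it passed the filter through the line in which it was called. Ccl8 and Ppbp also passed the filter only through knockout lines, so the calls of Ccl8, Cxcl10 and Ppbp are no support for a difference. With a minimum of 50 in place of 10, 3 of these genes were tested, and 1 was called in KO1 and 2 in KO3. Ccl25 was 523 ± 44.9 in WT and 418 ± 18.5 in KO3 (-0.32, adjusted p = 0.0137).

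Of 27 other cytokine genes, 13 were tested. KO1 called 6 higher and 2 lower, KO2 called 7 higher and 3 lower, and KO3 called 5 higher and 2 lower, with medians of 0.57, 0.65 and 0.32. All tested genes were called at 52.3%, 60.4% and 54.1%. Clcf1, which encodes an IL-6 family cytokine, had 521, 566 and 597 normalized counts in WT and rose to 2457 ± 72.3 (KO1), 2329 ± 190 (KO2) and 2083 ± 117 (KO3) (2.13, 2.05 and 1.89, limma adjusted p at most 6.34e-10). Clcf1 thus moved opposite to Il6 and Lif, and Ctf1, which encodes cardiotrophin-1 of the same family, fell in each line (-0.76, -0.52 and -1.38, adjusted p at most 0.00461). Il7, a lymphocyte growth factor gene, rose from 8.43 ± 2.32 to 134 ± 8.47 (KO1), 138 ± 12.4 (KO2) and 19.1 ± 2.37 (KO3) (3.86, 3.90 and 1.11, adjusted p at most 0.000549). Kitl, the gene of stem cell factor, rose by 1.05, 0.72 and 1.41 (adjusted p at most 7.84e-06), and Flt3l by 0.57, 0.61 and 1.16 (adjusted p at most 0.000358, with 0.32 for KO1 under quantile normalization). Il15 also fell in all 3 lines (-1.63, -1.07 and -2.16), Mif fell in KO2 (-1.21, adjusted p = 4.13e-05), and Il16 was higher in KO1, KO2 and KO3 (3.92, 5.56 and 2.95, adjusted p = 0.000310, 1.26e-05 and 0.00224, with 1.88 for KO3 without WT replicate 1). Il16 was under 10 in each WT library, and Il7 was under 10 in WT replicates 1 and 2 (8.23 and 6.21). Both thus passed the filter through the lines. Ctf1, Il15, Mif and Il16 were named after their values were seen. Il1a, Il1b, Tnf and Ifnb1, which encode common inducers of chemokine genes, had at most 4 reads in any group.

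The pathway that acts upstream of many of these genes was read from a list of 31 NF-kB, TNF and IL-1 signalling genes, of which 30 were tested. KO1 called 10 higher and 6 lower, KO2 called 11 higher and 3 lower, and KO3 called 9 higher and 8 lower, with medians of 0.10, 0.14 and 0.04, where the shares of all genes called were 52.3%, 60.4% and 54.1%. Myd88, the adaptor of IL-1 and Toll-like receptors, fell from 4717 ± 275 to 1482 ± 71.2, 1320 ± 27.3 and 1346 ± 77.7 (-1.67, -1.83 and -1.81, limma adjusted p at most 5.06e-10). The 3 genes called lower in KO2 were Myd88, Tlr2 (-0.47, adjusted p = 0.000452) and Nfkbia (-0.33, adjusted p = 0.0137), the latter 2 named after their values were seen. Bcl3, an IkB family co-regulator, rose by 1.95, 2.38 and 1.49 (adjusted p at most 3.70e-05), and Ikbkg, the NEMO subunit of the IkB kinase, by 1.03, 0.75 and 1.25 (adjusted p at most 6.63e-07). Nfkb2 rose in KO2 (0.57, adjusted p = 1.31e-06), fell in KO3 (-0.45, adjusted p = 1.17e-05) and differed by -0.01 in KO1 (adjusted p = 0.836).

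The 15 genes listed for the JAK and STAT pathway below IL-6 and LIF were all tested. This list also holds Osmr and Il11ra1, which are receptor genes of other ligands. KO1 called 9 higher and 2 lower, KO2 called 10 higher and 2 lower, and KO3 called 6 higher and 4 lower, with medians of 0.49, 0.49 and 0.12, beside 52.3%, 60.4% and 54.1% over all tested genes. Socs2, a feedback inhibitor of cytokine receptors, rose from 12 ± 3.58 to 65 ± 7.74, 130 ± 4.78 and 270 ± 17.1 (2.38, 3.37 and 4.42, limma adjusted p at most 7.30e-07). Stat5a rose by 1.21, 1.73 and 1.07 (adjusted p at most 4.61e-05) and the kinase gene Jak1 by 0.76, 0.59 and 0.98 (adjusted p at most 7.24e-07). Osmr, which encodes the oncostatin M receptor, was lower in each line (-0.94, -0.40 and -1.16, adjusted p at most 0.00131). Pias3 was the other gene called lower in KO1 and KO2 (-0.30 and -0.23), and KO3 called Osmr, Pias3, Tyk2 and Stat3 lower (Stat3 at -0.44, adjusted p = 0.000189). Pias3, Tyk2 and Stat3 were named after their values were seen. Stat3, the main target of gp130 signalling, was higher in KO2 (0.72, adjusted p = 2.61e-06) and differed by 0.07 in KO1 (adjusted p = 0.462).

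Many cytokine messenger RNAs carry elements that bind proteins which shorten or lengthen their life, and 12 genes of factors that destabilise or stabilise cytokine RNAs were tested. KO1 called 2 higher (Zfp36 and Zfp36l2) and 5 lower, KO2 called 1 higher (Zfp36) and 7 lower, and KO3 called 2 higher (Zfp36 and Zfp36l2) and 3 lower (Zfp36l1, Elavl1 and Khsrp). Over all genes, 52.3%, 60.4% and 54.1% were called. The medians of the list were -0.14, -0.32 and 0.08, and the KO3 count rose from 5 to 8 genes without WT replicate 1. Zfp36, which encodes the destabilising protein tristetraprolin, rose from 426 ± 39.6 to 823 ± 42.2, 856 ± 32.4 and 977 ± 90.1 (0.95, 1.01 and 1.20, limma adjusted p at most 2.05e-06). Its paralogue Zfp36l1 fell from 19465 ± 2804 to 6341 ± 199, 10128 ± 1230 and 4881 ± 191 (-1.61, -0.94 and -1.99, adjusted p at most 4.32e-06). Zfp36l2 rose in KO1 and KO3 (0.63 and 0.41) and fell in KO2 (-0.27, adjusted p = 0.000593, or -0.10 and 0.0583 under quantile normalization). Khsrp fell in each line (-0.62, -0.86 and -0.32, adjusted p at most 0.000643). The other genes called lower in KO1 were Zfp36l1, Khsrp, Rc3h2, Elavl1 and Hnrnpd, of which Elavl1 (the gene of the stabilising protein HuR), Rc3h2 and Hnrnpd were named after their values were seen.

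Of 8 genes for enzymes that shed or cut members such as CX3CL1, CSF1 and IL-33, or regulate such enzymes, 6 were tested. Adam10, the main constitutive sheddase of CX3CL1, fell in KO2 (-0.80, limma adjusted p = 6.98e-06) and KO3 (-0.39, adjusted p = 0.00248) and differed by -0.20 in KO1 (adjusted p = 0.0699). The KO1 difference was called with DESeq2 (-0.22, adjusted p = 0.0439) and without WT replicate 2 (adjusted p = 0.0389) or replicate 3 (0.0296). Timp3, which encodes an inhibitor of ADAM proteases, rose from 8539 ± 757 to 30416 ± 730, 50792 ± 1155 and 25182 ± 837 (1.84, 2.58 and 1.56, adjusted p at most 7.04e-10). Rhbdf2, a partner of ADAM17, fell in KO3 (-1.0, adjusted p = 0.000292) and differed by -0.19 and -0.31 in KO1 and KO2, which quantile normalization called (-0.55 and -0.48, adjusted p = 0.0187 and 0.0301). Adam17, named after its values were seen, fell in KO1 and KO3 (-0.17 and -0.33).

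For each tested member, the genes with the most similar profile over the 12 libraries were found by the root mean square distance between centred log2 values, among genes with a mean of at least 100. For Csf1 these were Hmgcs1 (distance 0.10), Anxa5 (0.10) and Cyp51 (0.11). Hmgcs1 and Cyp51 encode sterol synthesis enzymes, and Hmgcs1 went from 11576 in WT to 5707, 4364 and 4164. For Cx3cl1 they were Dot1l, Pmf1 and Tex30 (0.10 to 0.11), for Il6 Adgrl2, Pfn2 and Tbl1xr1 (0.21 to 0.22), and for Lif Cplx2 and Fry (0.60 and 0.67). For Cxcl5 they were Ugt1a7c (0.16), Klf4 (0.19) and Lpl (0.21), and for Cxcl1 Slc25a39, Cpne2 and Ephx1 (0.14 to 0.15). The nearest genes to Ccl2 were Cyfip2 (0.57), Pdk4 (0.74) and Col3a1 (0.79), and those to Ccl7 were Als2cl (0.60), Atp2a3 (0.61) and P2rx3 (0.79). Cyfip2 was at 17.7 in WT, against 363 (KO1), 17.8 (KO2) and 213 (KO3), high in the same lines as Ccl2. Among the members themselves the closest profiles were those of Cx3cl1 and Csf1 (0.36), and Ccl2 and Ccl7 were 1.06 apart. These distances describe 12 libraries of 4 genotypes and have no test.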

How the data were processed

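Total RNA of 12 libraries (4 groups of 3) was sequenced after depletion of ribosomal RNA, per the labels' protocols. The authors deposited normalized counts per gene (used here as a signal) and, per the file headers, tables of log2 fold changes, p-values and adjusted p-values for each knockout line against WT. The submitters' processing notes list the build GRCm38 (mm10) and, as tools, DESeq2 1.24.0, Salmon 0.14.1 and cutadapt. Tool settings and the strandedness of counting were not given in the sources used here. In each library 99.94% to 99.99% of values were whole multiples of 1 step within 0.02, so reads were recovered, and these may be rounded Salmon estimates. Symbols came from GENCODE M21 (54357 of 54392 identifiers matched), and there were 0 columns of other samples. The test was limma 3.58.1 (R 4.3.3) with a trend in the prior variance, on log2(value + 1) with 8 residual degrees of freedom, and the procedure was tested on simulated data. Alternatives were pseudocounts of 0.5 and 5, no filter or a minimum of 50, quantile normalization, a replicate block, fits of the 2 groups compared, edgeR 4.0.16 and DESeq2 1.42.0 on recovered reads, the authors' deposited table and leaving out each library.

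The members, the 7 gene lists and the 5 marker lists were chosen with earlier results of these data known. Named genes are the members, Crls1, up to 4 tested genes per list with the smallest adjusted p, and for each tested member the 3 genes with the nearest profile; a few of these are not reported here. Same-numbered libraries of different groups did not deviate together (r of -0.221 to 0.123 over 18 pairs, against -0.131 to 0.236 over 36 pairs with different numbers), so the numbers were not treated as pairs.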

Additional observations from a re-analysis of the deposited data

Results flagged for a closer look

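Each of the 8 tested members differed between at least 1 pair of knockout lines by limma's test of the difference itself, and the largest such difference is given here on the log2 scale. For Ccl2 it was -4.08 for KO2 minus KO1 (adjusted p = 3.28e-05), and for Ccl7 5.65 for KO3 minus KO2 (adjusted p = 5.04e-06). Ccl2 and Ccl7 passed the filter only through KO1 and KO3, so their differences from KO2 are no support by themselves. Cxcl5 differed by 1.12 (adjusted p = 2.67e-06) and Cxcl1 by 0.67 (adjusted p = 0.00254) for KO3 minus KO2. Cx3cl1 and Csf1 each differed by -0.57 for KO2 minus KO1 (adjusted p = 0.00132 and 0.000289). Il6 differed by -0.96 (adjusted p = 0.00256) and Lif by -1.98 (adjusted p = 0.0116) for KO3 minus KO1. Each line descends from 1 sorted cell, so a difference between lines and a difference between single cells of the parental culture cannot be told apart here.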

How the results depend on the processing

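No called result changed direction in any alternative, and the number of genes called among all genes tested stayed within 1.5 times its value in each comparison. Of 186 alternative values of the counts of all genes and of members, 183 stayed within that margin. The number of members called in KO1 against WT, 8 of 8, was 5 to 7 when single libraries were left out, with 5 without WT replicate 1, without KO1 replicate 1 and without KO1 replicate 3. Of 2739 alternative values for single genes and for lists, 2660 kept their side of the threshold with no called change of direction, 52 lost the call, 15 gained it and 12 counts moved by more than 1.5 times. With a pseudocount of 5 the differences of low genes shrank, for example that of Ccl2 in KO3 against WT from 4.07 to 2.24 and that of Lif from -3.49 to -2.22, both still called. Uncalled differences took the opposite sign in 20 of these values, 10 of them for members, such as that of Ccl7 in KO2 against WT (0.18, or -0.14 without WT replicate 1 and -0.65 without KO2 replicate 1). Few reads limit Ccl2, Ccl7 and Lif, each with 5 reads or fewer in at least 1 group, and left Cxcl12 and Il33 untested. Because the numbers do not pair the libraries, the replicate block is given only here: it called 7521, 8862 and 7865 genes in KO1, KO2 and KO3 against WT (7878, 9105 and 8151 without it), and 8, 6 and 8 members. The block made Lif in KO2 against KO1 pass the threshold (-1.33, adjusted p = 0.0448) and Il1rl1 in KO1 against WT miss it (adjusted p = 0.0594).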
